A study of Mus musculus with 4 samples.

Results

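The genes described here encode the chains of collagens, the triple-helical proteins of the extracellular matrix. They were chosen by symbol: every gene whose name is Col, a number, the letter a and a number (Col1a1, Col25a1). The pattern matched 44 of the 32285 genes in the count matrices, and each of the 44 had at least 1 unique molecular identifier (UMI, the tag that marks 1 captured RNA molecule) in the cells kept. The pituitaries came from male mice of the C57BL/6J strain, wild type, that ate either control food (CTRL) or food high in fat (HFD) during 12 weeks. They were dissociated with collagenase and trypsin, and single cells were captured on the 10x Genomics Chromium 3′ v3.1 platform. Each diet had 2 libraries, numbered 1 and 2 (CTRL 1 and 2, HFD 1 and 2). All groups share strain, sex, genotype and feeding time. The labels give neither the age of the mice, the composition of either diet nor the number of animals behind a library. The p-values therefore measure only the spread between these libraries, which may be technical.

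As background, a collagen molecule winds 3 chains, alike or different, into a triple helix. Fibrillar types build the tensile fibres of connective tissue, type IV forms the sheet-like network of basement membranes, and type VI forms fine beaded filaments around cells. Other types sit on the surface of fibrils, span the plasma membrane, or carry a carboxy-terminal piece that is released as endostatin or a relative of it. In the anterior pituitary, collagen surrounds the fenestrated capillaries that bring hypothalamic hormones and carry pituitary hormones away, and pericytes and fibroblast-like cells of the capillary wall are known as its main makers. Hormone-producing cells are not usually thought of as collagen cells.

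After filtering, the CTRL libraries kept 4350 and 6904 cells and the HFD libraries 7498 and 6928, at median depths of 17923, 12340, 8459 and 10959 UMIs per cell. Classes were named "-like" from marker genes that include no collagen, on clusters built without the collagen genes. Differences from other descriptions of this gland may come from these rebuilt names, and 11.4% of the cells stayed unnamed. The libraries were not independent in one respect. HFD 1 and HFD 2 shared 1326 kept cell barcodes, and in these the HFD 1 cell held a median of 5.66% of the UMIs of its HFD 2 counterpart. CTRL 2 and HFD 1 shared 275, with HFD 1 at a median of 2.97%, while the other 4 pairs of libraries shared 8 to 15. Where both cells of such a pair had a named class, it was the same class in 97.4% of the HFD 1 and HFD 2 pairs and in 91.3% of the CTRL 2 and HFD 1 pairs. Cells whose barcode another library held with more UMIs made up 24.2% of the HFD 1 cells but 3.89% of the HFD 1 UMIs, and class sums or leading genes are also given without these shallower copies where they were a large share of a class.

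Collagen RNA was concentrated in few cells. Mesenchymal-like cells (457, marked by Dcn, Lum and Pdgfra) were a mean of 1.73% of the cells in a library and held 17.5% of its collagen UMIs, and endothelial-like cells (1244) were 4.91% of the cells and held 21.5%. In counts per 1000000 UMIs of a class (CPM), summed over the 44 genes, mesenchymal-like cells averaged 4448, pericyte-like cells 2916, pituicyte-like cells 2726 and endothelial-like cells 2154. Schwann-or-glia-like cells averaged 1117, from 46 cells in all. Stem-like cells stood at 451, and the 6 hormone-producing classes lay at 161 or lower. CPM from 3′ tags is not scaled to gene length, since each RNA molecule gives 1 tag, so levels of different genes compare numbers of captured molecules and not of sequenced bases.

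Between the diets, 1 collagen gene in 1 cell class passed the test: Col25a1 in lactotrope-like cells, which fell by 3.16 on the log2 scale under HFD. Type I, III and XV collagen genes of mesenchymal-like cells had higher mean values in the HFD libraries. So had the type IV genes Col4a1 and Col4a2 of endothelial-like cells, whereas Col4a3 there did not. None of them passed at an adjusted p under 0.05. The diet difference of Col1a2 had opposite signs in stem-like and somatotrope-like cells, and did not pass this test within either class. A test of the difference between these classes passed, as it did for 21 of 15189 genes, but the pair was chosen after the values had been seen.

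**Figure D1:**
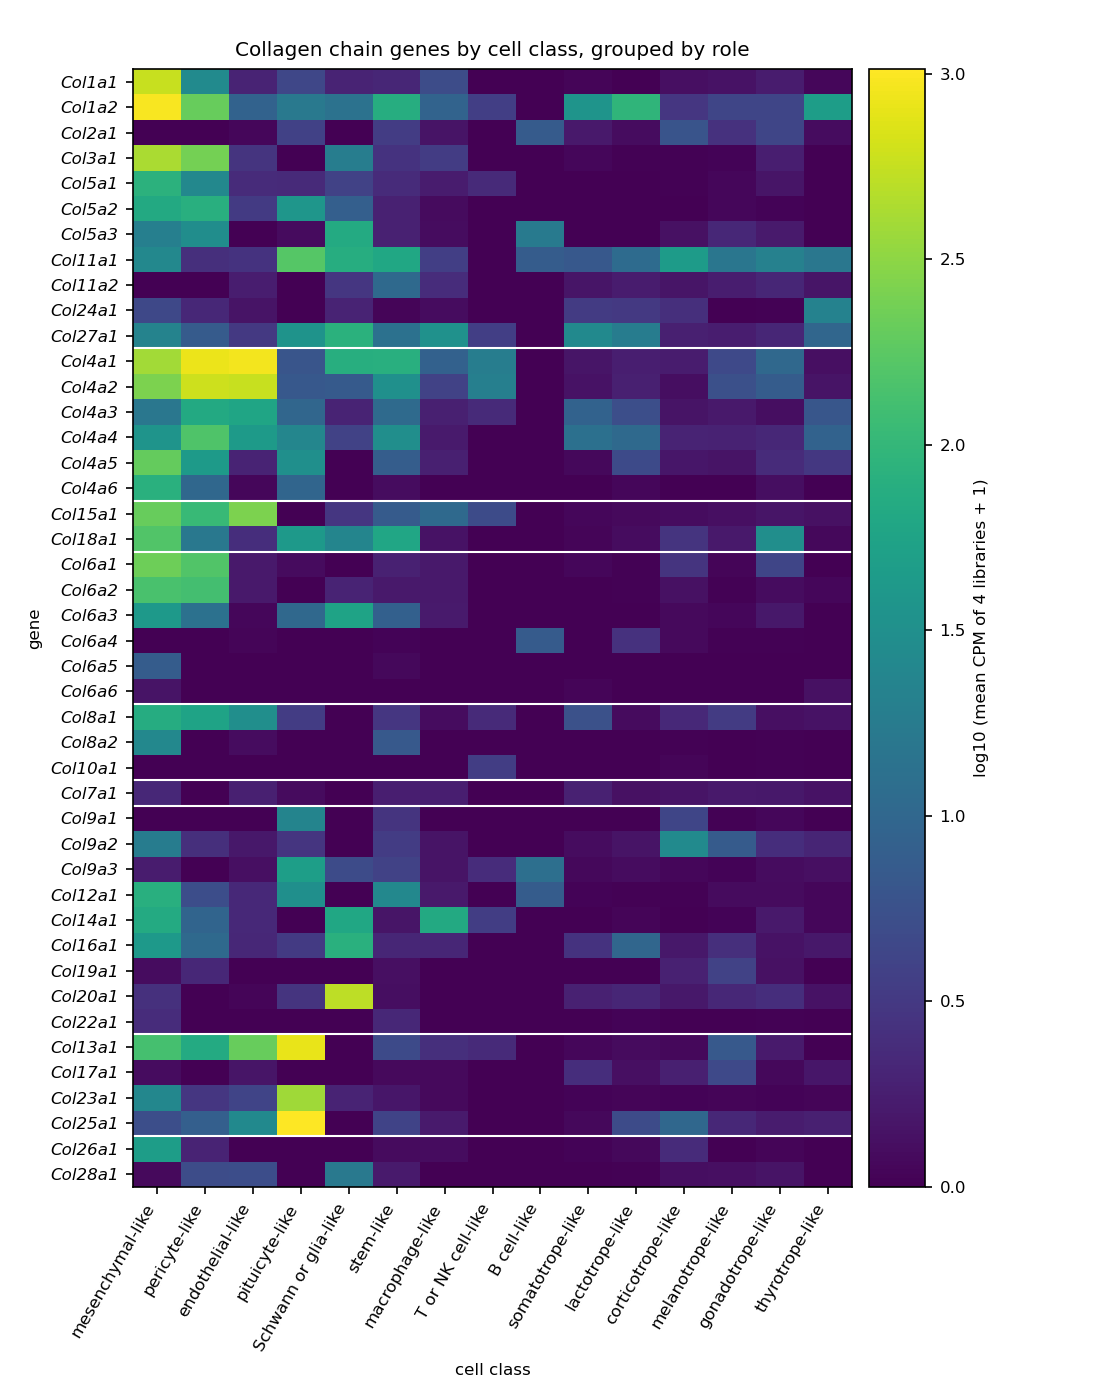
Mean CPM of 4 libraries (shown as log10 of CPM + 1) for each of the 44 collagen chain genes, grouped by role, in each cell class. In mesenchymal-like cells 39 members were detected, and 18 members have their highest mean there.

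Mesenchymal-like cells had the highest mean level of 18 members, 14 of them at 10 CPM or more. Pituicyte-like cells and Schwann-or-glia-like cells each had the highest level of 6, pericyte-like cells of 4, and endothelial-like, melanotrope-like and B-cell-like cells of 2 each. Thyrotrope-like, corticotrope-like, stem-like and T-or-NK-like cells had 1 each. For 20 of the 44 members, the class with the highest mean exceeded the class with the second highest mean in all 4 libraries. These are descriptions of rebuilt classes, and no class was tested against the others. The 3 most abundant members (Col1a2, Col4a1 and Col4a2) held 42.1% of all collagen UMIs, and 4 members (Col22a1, Col6a5, Col6a6 and Col10a1) had fewer than 50 UMIs in all cells together.

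Among the fibrillar genes, Col1a1 and Col1a2 encode the chains of type I collagen, which is normally built from a pair of the first and a single copy of the second. Col1a1 was almost restricted to mesenchymal-like cells, which held a mean of 91.9% of its UMIs. Its level there was 445 and 412 CPM in the CTRL libraries and 789 and 645 CPM in the HFD libraries, against a mean of 26.5 CPM in pericyte-like cells. Col3a1, which forms homotrimers that share fibrils with type I, also lay mainly in mesenchymal-like cells (80.9% of its UMIs) and in pericyte-like cells (11.7%).

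Col1a2 was distributed differently. It had the most UMIs of any collagen gene (16453) and was found in 26.4% of all cells, but mesenchymal-like cells held only 20.6% of it. Lactotrope-like cells held 36.5%, somatotrope-like cells 22.3% and stem-like cells 10.9%. The partner chain was nearly missing in these classes: lactotrope-like cells had 5868 Col1a2 UMIs and 2 Col1a1 UMIs, somatotrope-like cells 3787 and 10, and thyrotrope-like cells 366 and 1. In mesenchymal-like cells the ratio of Col1a2 to Col1a1 UMIs was 1.74 (95% interval 1.65 to 1.84, counting error only), with 1.81, 1.85, 1.41 and 1.82 in the 4 libraries. In stem-like cells it was 62.4 (43.0 to 94.1). Both chains were seen together in 83.2% of mesenchymal-like cells, while 49.2% of lactotrope-like cells and 31.7% of somatotrope-like cells had Col1a2 alone.

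The Col1a2 level of lactotrope-like cells was 99.6, 77.9, 90.8 and 101 CPM (CTRL 1, CTRL 2, HFD 1, HFD 2), with no separation of the diets. Corticotrope-like cells, taken from the same libraries, had 2.51, 2.72, 1.88 and 0.89 CPM, and melanotrope-like cells 6.34, 2.79, 1.53 and 2.16 CPM. At least 1 Col1a2 UMI was found in 49.3% of lactotrope-like cells (median depth 11502 UMIs) and in 1.77% of corticotrope-like cells (median depth 10694). After thinning every cell to 2000 UMIs, the shares were 17.0, 12.8, 15.1 and 17.7% of lactotrope-like cells and 0.56, 0.19, 0 and 0.35% of corticotrope-like cells. The Col1a2 signal of lactotrope-like cells was above that of a hormone class of like depth in the same libraries. Barcodes with under 500 genes had 275 Col1a2 and 24 Col1a1 UMIs, a ratio of 11.5. Whether these barcodes hold free RNA or shallow cells is not known. The part of free RNA in the Col1a2 values was not tested.

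**Figure D2:**
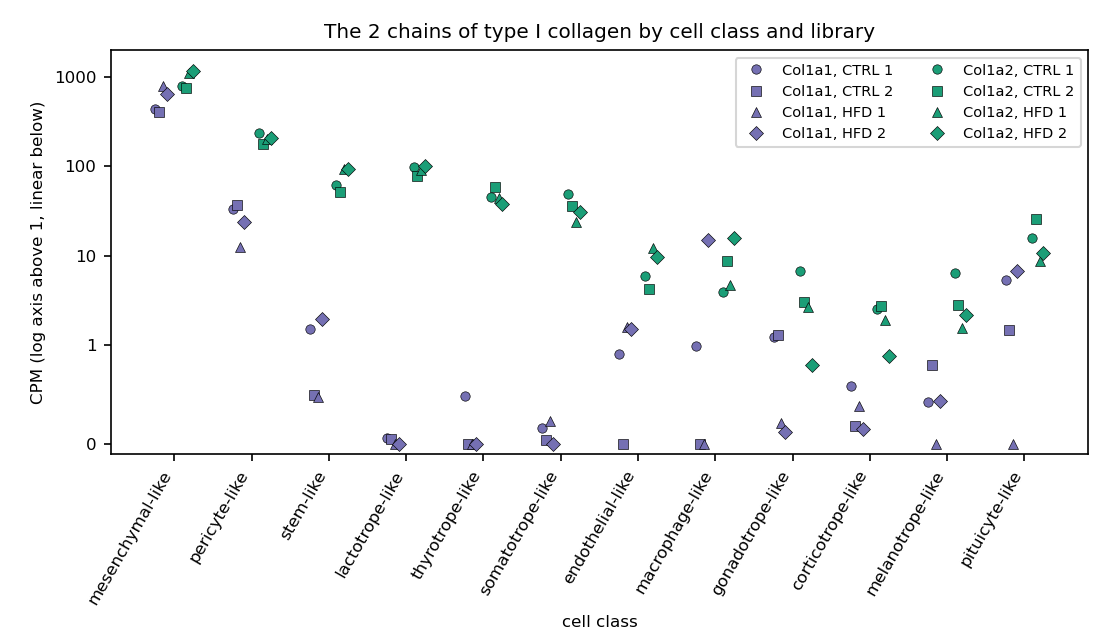
CPM of Col1a1 and Col1a2 in each cell class, 1 point per library, on an axis that is linear below 1 and logarithmic above. Mesenchymal-like cells show both chains at 412 CPM or more in every library, whereas lactotrope-like cells show Col1a2 at 77.9 to 101 CPM with Col1a1 at or near 0.

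The remaining fibrillar genes were spread over other classes. Col11a1, a chain of type XI collagen that sits inside thin fibrils, averaged 166 CPM in pituicyte-like cells, 60.9 in stem-like cells and 44.1 in corticotrope-like cells. Its partner Col11a2 had 230 UMIs against 1404 of Col11a1 in stem-like cells and 0 against 371 in pituicyte-like cells. Col27a1, a fibrillar chain best known from cartilage, was held to 55.2% by somatotrope-like cells (30.6, 24.0, 23.0 and 24.9 CPM) and to 21.95% by lactotrope-like cells. Col24a1, a minor fibrillar chain known from bone, was highest in thyrotrope-like cells at 28.1, 12.6, 22.9 and 18.2 CPM, above the second class in all 4 libraries. Col2a1, the main fibrillar chain of cartilage, reached 5.07 CPM in corticotrope-like cells. Col5a1 and Col5a2, chains of type V collagen that regulate fibril diameter, were found mainly in mesenchymal-like cells (74.5 and 50.5% of their UMIs), but pituicyte-like cells had 90 Col5a2 UMIs with 3 of Col5a1.

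The most abundant type IV genes, Col4a1 and Col4a2, were highest in endothelial-like and pericyte-like cells. Col4a1 and Col4a2 encode the chains of the common basement membrane collagen and lie head to head on chromosome 8 (mm10), where Col4a2 reads from the plus strand and Col4a1 from the minus strand. The 22 bases from the one start site to the other are shown because the 2 genes share them, with the first base of each gene in capitals (RefSeq, GRCm38.p6, plus strand, chr8:11312805-11312826):
Col4a2 to Col4a1: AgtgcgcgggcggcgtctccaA
The stretch is 72.7% G and C. In endothelial-like cells Col4a1 stood at 882 and 761 CPM in the CTRL libraries and 1143 and 889 in the HFD libraries, and Col4a2 at 525 and 476 against 711 and 592. These 2 genes held 69.2% of the collagen UMIs of that class, and the 6 type IV genes together 74.0%. Pericyte-like cells were alike, with means of 835 CPM for Col4a1 and 611 for Col4a2, so that neither class led the other in all 4 libraries.

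The ratio of Col4a1 to Col4a2 UMIs was 1.60 in endothelial-like cells (95% interval 1.54 to 1.66), 1.46 in mesenchymal-like cells (1.34 to 1.59), 1.34 in pericyte-like cells (1.198 to 1.502) and 2.39 in stem-like cells (2.19 to 2.60). Across single cells the 2 genes went together within each library: Spearman's rho was 0.57, 0.45, 0.38 and 0.57 in endothelial-like cells and 0.55, 0.41, 0.60 and 0.37 in mesenchymal-like cells, on counts scaled to cell depth that share library and depth. Between the type I and type IV chains of the same mesenchymal-like cells (Col1a1 and Col4a1), rho was 0.11, 0.02, 0.29 and -0.01. The annotation places a gene on the opposite strand over the 3′ end of Col4a1, and the same is true of Col4a3, Col9a3, Col10a1 and Col18a1. Whether counting used strand is not given in the sources used here, so it is not known whether reads of these pairs were kept apart.

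The other type IV genes are paired in the same head-to-head manner and encode chains of specialised basement membranes. Col4a3 and Col4a4 were highest in pericyte-like cells, at means of 67.4 and 153 CPM, but by UMIs somatotrope-like cells held the largest shares, 34.4 and 31.2%. Col4a5 and Col4a6, which lie on the X chromosome, were led by mesenchymal-like cells with 198 and 81.6 CPM. Lactotrope-like cells had 230 UMIs of Col4a5 and 7 of Col4a6, against 700 and 293 in mesenchymal-like cells.

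Col15a1 and Col18a1 encode the multiplexins, basement-membrane-zone collagens that release endostatin-like fragments. Col15a1 was led by endothelial-like cells (263 CPM, 67.6% of its UMIs) and mesenchymal-like cells (206 CPM, 21.0%). Col18a1 was nearly absent from endothelial-like cells (0.42% of its UMIs) and lay in stem-like cells (48.2%), gonadotrope-like cells (25.0%) and mesenchymal-like cells (17.8%). Type VI genes were mesenchymal and perivascular: Col6a1 averaged 220.4 CPM in mesenchymal-like and 156 CPM in pericyte-like cells, and Col6a2 138 and 129 CPM. Col6a4, whose human counterpart is a broken gene, was held to 87.7% by lactotrope-like cells, at a mean of 1.67 CPM.

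Among the fibril-associated genes, Col12a1 (78.6 CPM) was led by mesenchymal-like cells, and Col14a1 was shared by mesenchymal-like cells (68.7 CPM) and macrophage-like cells (67.0 CPM). In macrophage-like cells Col14a1 was 89.6 and 66.3 CPM in the CTRL libraries and 62.1 and 50.3 in the HFD libraries, in 26.5% of cells, while Dcn stood at 7.87, 8.59, 4.63 and 97.2 CPM there and at 6097 to 12356 CPM in mesenchymal-like cells. Granulocyte markers (5 of 5 detected) summed to 26.6 and 31.9 CPM under CTRL and to 5177 and 5367 CPM under HFD in the macrophage-like cells, and their part in the Col14a1 values was not tested. Col9a2, a type IX chain, was led by corticotrope-like cells at 29.6 and 30.0 CPM under CTRL and 23.7 and 22.7 under HFD. Col16a1 was held to 49.8% by lactotrope-like cells. Of the short-chain genes, Col8a1 averaged 72.3 CPM in mesenchymal-like and 54.2 CPM in pericyte-like cells. Col7a1, the anchoring fibril chain, stayed at 1.18 CPM or less in every class.

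Pituicyte-like cells (224, glia of the neural lobe, marked by Rax, Nkx2-1 and Scn7a) differed from the other collagen-rich classes in that 95.7% of their collagen UMIs came from types other than I, III, IV and VI. Their leading members were transmembrane collagens. Col25a1, whose shed ectodomain is known as a component of amyloid plaques and which motor axons need to reach muscle, had 978, 1040.5, 1110.1 and 981 CPM. Col13a1, found at neuromuscular junctions, had 809, 1092, 994 and 379 CPM, and Col23a1 had 129.9, 379.5, 424 and 585 CPM. Col9a3 averaged 47.2 CPM there and Col9a1 21.6 CPM. Col25a1 and Col23a1 were themselves among the 10 leading genes of this cluster although they took no part in forming it. In HFD 1, 63.0% of the pituicyte-like cells were shallower copies of cells in other libraries, and without them the Col25a1 level of HFD 1 was 1168 CPM and that of Col23a1 415 CPM. Outside these cells Col13a1 was next highest in endothelial-like cells, at 178, 215, 206 and 213 CPM.

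Schwann-or-glia-like cells were 46 in all (1, 10, 3 and 32 by library) and had the myelin genes Mbp, Mog and Mag among their leading genes, of which Mog marks oligodendrocytes. Their means are set largely by the 1 cell of CTRL 1. Col20a1 had 46 UMIs there, in 9 of the 46 cells, and Col27a1 20, Col16a1 14, Col5a3 10, Col28a1 3 and Col6a3 1. T-or-NK-like cells had 14 UMIs each of Col4a1 and Col4a2 in at most 5 of 160 cells, and B-cell-like cells had 3 of Col5a3 and 2 of Col9a3 in 53 cells.

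To compare the diets, UMIs were summed per library and class and each gene was tested with edgeR's quasi-likelihood test, with Benjamini-Hochberg adjustment over all genes of a class. The summed collagen level of the whole gland was 250.4 and 238 CPM in the CTRL libraries and 277 and 290.5 in the HFD libraries, a log2 ratio of the means of 0.21. The libraries of the 2 diets did not overlap in this sum. In the whole gland, more cells of a collagen-rich class and more collagen RNA per cell cannot be told apart: mesenchymal-like cells held 10.7 and 17.9% of the collagen UMIs in the CTRL libraries and 15.7 and 25.6% in the HFD libraries. Of the 40 members tested there, none passed, 5 had an unadjusted p under 0.05, and DESeq2 called 1 (Col1a1, adjusted p = 0.0444). In edgeR 0.0108% of all genes passed and 10.1% had an unadjusted p under 0.05. The share of all genes that DESeq2 called is not given here, so whether its call is particular to collagen genes is not known. The values of the diets did not overlap for 11 of the 40 members that were higher and 1 that was lower under HFD, where 27.3 and 15.5% of all genes tested were. Col18a1 had 7.13 and 7.33 CPM against 9.69 and 11.6 CPM, and its log2 difference went from 0.52 to -0.03 when all shared barcodes were left out. That step took HFD 2 from 362 to 108 stem-like and from 380 to 41 gonadotrope-like cells. In CTRL 1 they went from 305 to 304 and stayed at 211. Changed class shares and changed levels cannot be told apart in this value.

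In mesenchymal-like cells the summed level was 3759.5 and 3868 CPM under CTRL and 5548 and 4617 CPM under HFD, a log2 ratio of 0.41. Without the shallower copies it was 3759.5, 3859, 5715 and 4598 CPM. The fibrillar genes together had 1847 and 1743 CPM against 2733 and 2411 CPM, whereas the type IV genes had 917 and 988 against 1162 and 857 CPM, with overlap. Of the 28 members tested, 20 had a log2 difference above 0 and 8 below, with a median of 0.30 (0.00 over all genes tested). The diets did not overlap for 12 of the 28 members that were higher and 1 that was lower under HFD, where 18.5 and 15.1% of all genes were. None passed in edgeR (0.0117% of all genes did) or in DESeq2, and 8 members had an unadjusted p under 0.05, as had 4.56% of all genes.

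Col15a1 differed most in these cells. It had 105 and 127 CPM in the CTRL libraries and 305 and 287 CPM in the HFD libraries, so both HFD libraries lay above both CTRL libraries. Its log2 difference was 1.32 (SE 0.20), with an edgeR adjusted p of 0.338. The same gene had 259 and 229.8 CPM against 286 and 276 CPM in endothelial-like cells, a log2 difference of 0.22 (SE 0.15). The difference between these classes was 1.13 (SE 0.25), with an edgeR adjusted p of 0.181 for the interaction.

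Both type I chains were higher in the HFD libraries. Col1a1 had 445 and 412 CPM against 789 and 645 CPM (log2 difference 0.72, SE 0.21), and Col1a2 had 803 and 763 against 1112 and 1173 CPM (0.53, SE 0.22). Both had an edgeR adjusted p of 0.998. Col6a3, the long chain of type VI, had 29.9 and 29.8 CPM against 50.1 and 56.0 (0.83, SE 0.26), and Col12a1, which coats fibrils, had 46.5 and 66.6 against 100.2 and 101 CPM (0.79, SE 0.24).

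Other abundant members of these cells varied within a diet. Col3a1 had 395 and 372 CPM against 567 and 381, and Col6a1 204 and 203 against 254 and 220.2. Col4a1 had 405 and 406 CPM against 467 and 280.5, and Col4a2 274 and 283 against 289 and 201, so that the 2 HFD libraries lay on either side of the CTRL values. Their log2 differences of -0.15 and -0.22 turned to 0.17 and 0.02 without HFD 2.

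Marker RNA of other cells also varied between the mesenchymal-like sums. The summed mesenchymal markers (9 of 9 detected) were 10165 CPM in CTRL 1 and 18366 to 20935 in the other 3 libraries, and somatotrope markers (4 of 5 detected) were 24785 CPM in CTRL 1 and 3096 to 9107 in the others. CTRL 1 held 50 of these cells. Other lists separated the diets. Pericyte markers (11 of 11 detected) summed to 1798 and 1602 CPM under CTRL and 1106 and 870.1 under HFD, with Rgs5 at 322 and 307 against 96.2 and 158 CPM. Stem markers (8 of 8) summed to 778 and 875 against 311 and 349 CPM, and red blood cell markers (5 of 5) to 73.0 and 49.7 against 130.2 and 1118 CPM. The part of these cells' RNA in the collagen values was not tested. The collagen share of a single mesenchymal-like cell had a median of 0.44, 0.34, 0.44 and 0.45% of its UMIs, with interquartile ranges that overlapped in all 4 libraries.

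**Figure D3:**
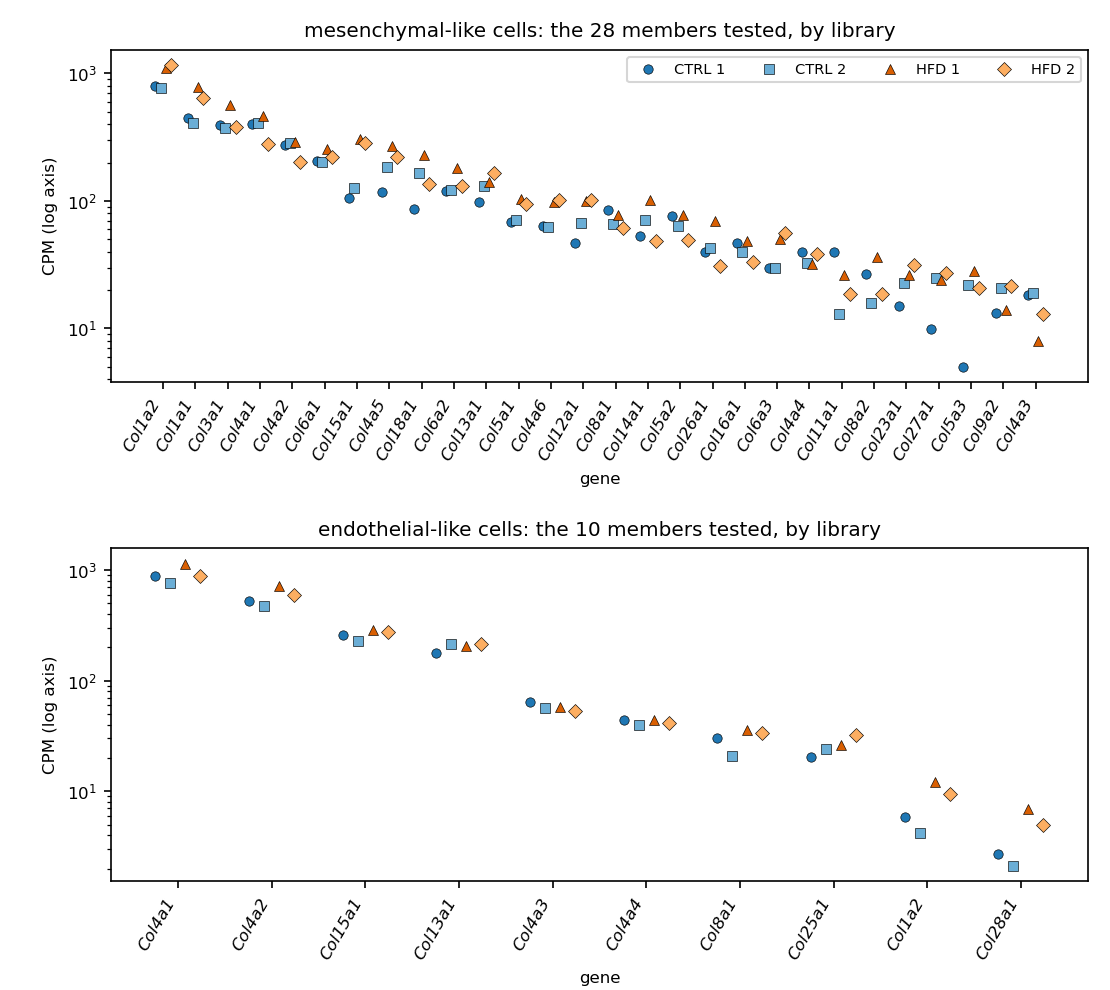
CPM on a logarithmic axis of the collagen genes tested in mesenchymal-like and endothelial-like cells, with 1 point per library, coloured by diet. Col15a1 and the type I chains of mesenchymal-like cells have both HFD points above both CTRL points, and Col4a1 of the same cells has its 2 HFD points at 467 and 280.5 CPM, above and below the CTRL points.

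In endothelial-like cells the summed level was 2042 and 1845 CPM under CTRL and 2556 and 2175 CPM under HFD (log2 ratio 0.28), without overlap, and 2042, 1842, 2568 and 2182 CPM without the shallower copies. Of the 10 members tested, 9 had a log2 difference above 0, with a median of 0.36 (0.00 over all genes). Col4a2 had a log2 difference of 0.39 (SE 0.16) and Col4a1 of 0.32 (SE 0.18). The diets did not overlap for 7 of the 10 members, all higher under HFD, where 14.3% of all genes were higher and 16.1% lower without overlap. No member and no other gene passed in edgeR (percent called 0), DESeq2 called no member, and 3 members had an unadjusted p under 0.05, against 4.06% of all genes.

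The 3 largest differences in endothelial-like cells were of low or moderate genes. Col28a1, a chain with von Willebrand factor A domains, had 2.70 and 2.11 CPM against 6.90 and 5.01, from 34 UMIs in all. Col1a2 had 5.86 and 4.22 CPM against 12.2 and 9.51 (log2 difference 1.12, SE 0.39). Beside it, the summed mesenchymal markers of these cells (8 of 9 detected, Dpt at 0) were 44.1 and 24.9 CPM under CTRL and 52.6 and 135 CPM under HFD. Somatotrope markers (4 of 5 detected, Gpr101 at 0) were 26377 and 7979 against 6307 and 5675 CPM. The part of either in the collagen differences was not tested. Col8a1, a short-chain collagen of vessel walls, had 30.2 and 20.7 CPM against 35.6 and 33.5. Col15a1, Col13a1, Col4a3 and Col4a4 had log2 differences of 0.22, 0.10, -0.11 and 0.04.

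Pericyte-like cells (118) and pituicyte-like cells (224) were too few in some libraries for a test. Pericyte-like cells summed to 2255, 3007, 3013 and 3389.8 CPM, so HFD 1 stood only just above CTRL 2. Their Col4a1 was 619 and 801 CPM under CTRL and 979.8 and 942 under HFD, and Col3a1 was 175 and 194 against 222 and 369. CTRL 1 stood apart in these 118 cells, with pericyte markers (11 of 11 detected) at 9548 CPM against 13858 to 18476 in the other libraries. Somatotrope markers (4 of 5 detected, Gpr101 at 0) were at 78112 CPM in CTRL 1, 37674 in HFD 1, and 2574 and 3534 in CTRL 2 and HFD 2. Their part in the collagen values was not tested. Col4a2, Col1a2, Col6a1 and Col4a4 overlapped between the diets. Pituicyte-like cells summed to 2346, 3062, 3077 and 2418 CPM, with overlap, and HFD 1 was at 3300.5 CPM without its shallower copies.

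**Figure D4:**
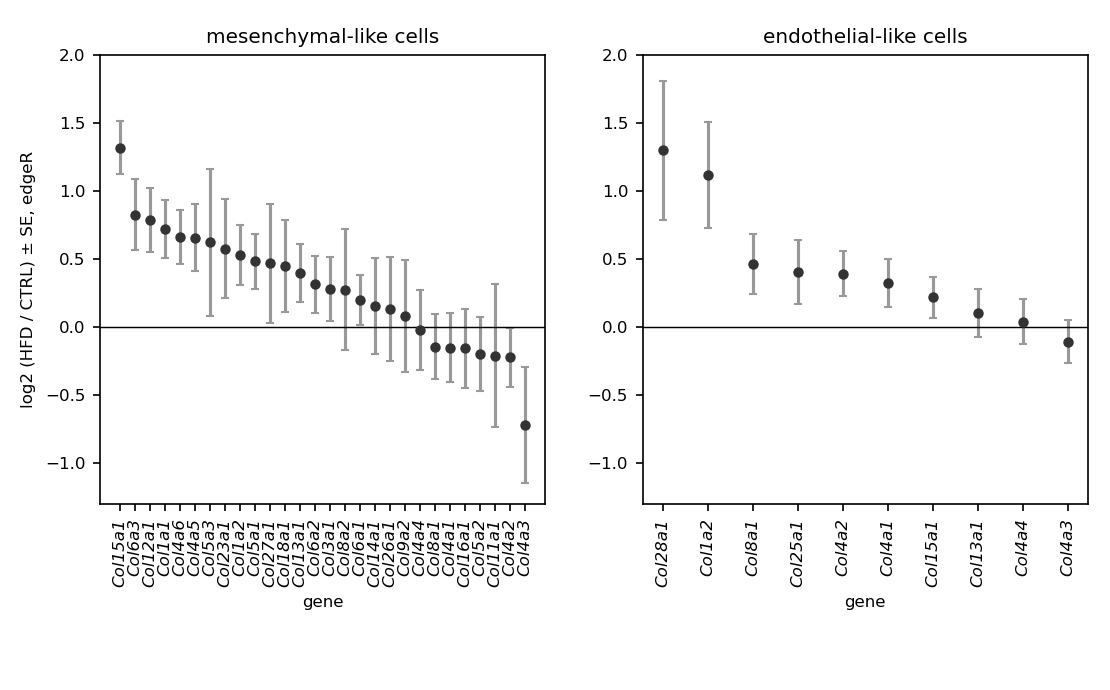
log2 difference (HFD over CTRL, vertical axis) for each collagen gene tested in mesenchymal-like cells (28 genes) and in endothelial-like cells (10 genes), in descending order; points are edgeR estimates and bars are ± 1 SE. The values run from 1.32 (Col15a1) to -0.72 (Col4a3) in mesenchymal-like cells and from 1.30 (Col28a1) to -0.11 (Col4a3) in endothelial-like cells, and none of those shown had an adjusted p under 0.05.

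Stem-like cells (1695, marked by Sox2 and Sox9) carried a mixed set, led by Col4a1, Col1a2, Col11a1 and Col18a1. Col4a1 was 93.1, 66.9, 94.1 and 60.1 CPM and did not separate the diets. Col1a2 had 62.3 and 52.1 CPM under CTRL and 92.7 and 94.1 under HFD (log2 difference 0.69, SE 0.11), Col18a1 46.0 and 45.6 against 71.0 and 75.2 (0.66, SE 0.11), and Col11a1 52.7 and 49.0 against 81.1 and 60.9 (0.45, SE 0.14). The first 2 had an edgeR adjusted p of 0.285 and the third of 0.479. Over 14 alternative settings the log2 difference ran from 0.59 to 0.80 for Col1a2 and from 0.59 to 0.82 for Col18a1. Of 23 members tested, none passed in edgeR, where 0% of all genes did, or in DESeq2, 3 had an unadjusted p under 0.05 (8.83% of all genes), and 5 were higher and 1 lower without overlap (22.5 and 18% of all genes). Mesenchymal markers in these sums (9 of 9 detected) were 153 and 79.4 CPM under CTRL and 98.6 and 184 CPM under HFD, and did not separate the diets. The stem markers themselves (8 of 8) did, at 11119 and 12797 CPM under CTRL and 15586 and 16387 under HFD. Lactotrope markers (7 of 8 detected, Agtr1b at 0) were 7780 and 3674 against 1917 and 515 CPM, and corticotrope markers (5 of 5) 3086 and 912 against 692 and 570.1 CPM. Their part in the differences of Col1a2, Col18a1 and Col11a1 was not tested.

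The stem-like cells fell into 2 clusters, one with 281, 346, 288 and 331 cells and a smaller one with 24, 64, 330 and 31. In the first, Col1a2 was 64.2 and 51.4 CPM against 92.6 and 94.7, and Col18a1 47.7 and 45.4 against 69.1 and 75.4, so the diets separated there. In the second, Col1a2 was 27.1 and 91.7 against 93.7 and 48.4 CPM, with overlap, from 10, 10, 38 and 4 UMIs. Shallower copies made up 51.9% of the HFD 1 stem-like cells and 9.82% of their UMIs. Without them HFD 1 had 93.1 CPM of Col1a2, 69.3 of Col18a1 and 83.7 of Col11a1, and 6 members were higher and 0 lower without overlap.

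Somatotrope-like cells (6616, marked by Gh) went the other way in Col1a2, with 48.7 and 36.2 CPM under CTRL and 23.5 and 30.9 under HFD. The log2 difference was -0.72 (SE 0.19), with an adjusted p of 0.144 in edgeR and 0.00925 in DESeq2. These cells fell into 2 clusters of unequal makeup, one with 1066, 1483, 330 and 813 cells and the other with 200, 191, 1043 and 1490. Col1a2 was 49.5, 35.2, 18.7 and 29.4 CPM in the first and 44.5, 44.8, 25.0 and 31.8 CPM in the second, so that HFD libraries lay below CTRL libraries within each. Beside this, lactotrope markers in the somatotrope-like sums (7 of 8 detected, Agtr1b at 0) were 1063 and 755 CPM under CTRL and 448 and 488 under HFD, and red blood cell markers (5 of 5) 564 and 86.8 against 1852 and 2234 CPM. Their part in the Col1a2 difference was not tested. Of 15 members tested none passed in edgeR (0.128% of all genes did) and 1, Col1a2, in DESeq2. The share of all genes called by DESeq2 in these cells is not given here. An unadjusted p under 0.05 was reached by 2 members and by 17.8% of all genes, and 4 were higher and 2 lower without overlap, as were 33.6 and 17% of all genes.

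The diet difference of Col1a2 was compared between classes in one fit with library as a term. Stem-like minus somatotrope-like cells gave a log2 difference of 1.39 (SE 0.16), with an edgeR adjusted p of 0.0133, and 1.45 with an adjusted p of 0.0114 without the shallower copies. Over all genes, 21 of 15189 passed in the first fit and 32 of 15116 without the shallower copies. Mesenchymal-like minus somatotrope-like cells gave 1.26 (adjusted p = 0.0502), and mesenchymal-like minus lactotrope-like cells 0.47 (adjusted p = 1). These class pairs were among 7 comparisons chosen after the values had been seen.

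In lactotrope-like cells (5507, marked by Prl) the summed level was 174 and 130.4 CPM under CTRL and 166 and 175 under HFD, with Col1a2 as its main part. Of 14 members tested, Col25a1 passed (0.961% of all genes passed, 0.553% with lower values under HFD), 3 had an unadjusted p under 0.05 (11.3% of all genes), and 4 were higher and 1 lower without overlap (28.4 and 12.9% of all genes). Col27a1 had 16.6 and 8.99 CPM against 21.9 and 21.2 CPM, a log2 difference of 0.72 (SE 0.23) with an edgeR adjusted p of 0.219. The log2 difference of Col27a1 was 1.23 without CTRL 1, 0.74 without HFD 1 and 0.70 without HFD 2. Over 14 alternative settings it ran from 0.30 to 1.23.

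Col25a1 of lactotrope-like cells was 5.13 and 8.90 CPM in the CTRL libraries and 0.62 and 1.01 CPM in the HFD libraries. Both HFD libraries lay below both CTRL libraries. The log2 difference was -3.16 (SE 0.37), with an edgeR adjusted p of 0.00293. Cells with at least 1 Col25a1 UMI numbered 62 of 963 in CTRL 1, 173 of 1872 in CTRL 2, 8 of 1489 in HFD 1 and 13 of 1183 in HFD 2, or 6.44, 9.24, 0.54 and 1.10%. In somatotrope-like cells, taken as a class that lacks the gene, the shares were 0.32, 0.30, 0.22 and 0.13%, at a median depth of 14008 against 11502 UMIs. Thinned to 2000 UMIs per cell, the lactotrope-like shares were 1.10, 1.80, 0.16 and 0.18%.

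Nearly all of this signal came from the larger of the 2 lactotrope-like clusters, which had 83 and 199 Col25a1 UMIs under CTRL (743 and 1366 cells) and 7 and 12 under HFD (1062 and 829 cells). The difference passed in each of 14 alternative settings, with log2 values from -3.61 to -2.72 and adjusted p from 9.67e-24 to 0.0427. It was -3.21 without the shallower copies and -3.61 without any shared barcode. Pituicyte markers in the lactotrope-like sums (5 of 6 detected, Nkx2-1 at 0) came to 3.09 and 3.51 CPM under CTRL and 2.01 and 2.09 under HFD. Among them, Rax was 1.48 and 2.81 CPM under CTRL and 0.93 and 0.85 under HFD, without overlap. Scn7a was 0.37 and 0.22 against 0.08 and 0.47 CPM, with overlap. In pituicyte-like cells Rax was 339 and 413 against 468 and 414 CPM. The part of pituicyte RNA in the difference was not tested. Pituicyte-like cells themselves had 978 to 1110.1 CPM with no separation of the diets.

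Other classes with the gene gave the following values. Endothelial-like cells had 20.3 and 24.1 CPM under CTRL and 26.0 and 32.0 under HFD, without overlap (log2 difference 0.40, SE 0.24, edgeR adjusted p = 1.00). Stem-like cells had 2.88 and 3.74 against 2.59 and 2.77 CPM, also without overlap (-0.31, SE 0.39, edgeR adjusted p = 0.854), and just overlapped without the shallower copies, when HFD 1 had 2.88 CPM. Gonadotrope-like cells had 0.93 and 1.06 against 0.41 and 0.45 CPM, from 17 UMIs in all. Corticotrope-like cells had 11.4, 9.98, 10.3 and 5.05 CPM, a log2 difference of -0.43 (SE 0.31). The difference between lactotrope-like and corticotrope-like cells was -2.70 (SE 0.53), with an edgeR adjusted p of 0.0698. That from endothelial-like cells was -3.52 (adjusted p = 0.0800) and that from stem-like cells -2.78 (adjusted p = 0.186), so no interaction of Col25a1 passed. In the same order, 59 of 14279, 0 of 14334 and 2 of 15011 genes passed in these fits. The bases before the annotated start of Col25a1 are shown because this was the one member that passed the edgeR diet test within a class (RefSeq, GRCm38.p6, plus strand, chr3:130180595-130180844, the 250 bases before the start site, CG pairs in capitals):
Col25a1: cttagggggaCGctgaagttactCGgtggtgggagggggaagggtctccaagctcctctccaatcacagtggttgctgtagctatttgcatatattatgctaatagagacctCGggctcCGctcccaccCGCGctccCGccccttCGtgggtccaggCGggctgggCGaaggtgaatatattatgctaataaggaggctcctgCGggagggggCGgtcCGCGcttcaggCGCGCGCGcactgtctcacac
The stretch holds 18 CG pairs and is 60.4% G and C, against medians of 6 pairs and 52.4% over 32851 RefSeq promoters of full length, of which 21.7% have at least as many pairs. In the window from 250 bases before to 50 after the start, GGGCGG was found 2 times, CCAAT 1 time and TATAAA 0 times on either strand, and 35.7, 37.4 and 13.6% of all promoters hold these motifs. The match of letters says nothing on whether a factor binds there.

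**Figure D5:**
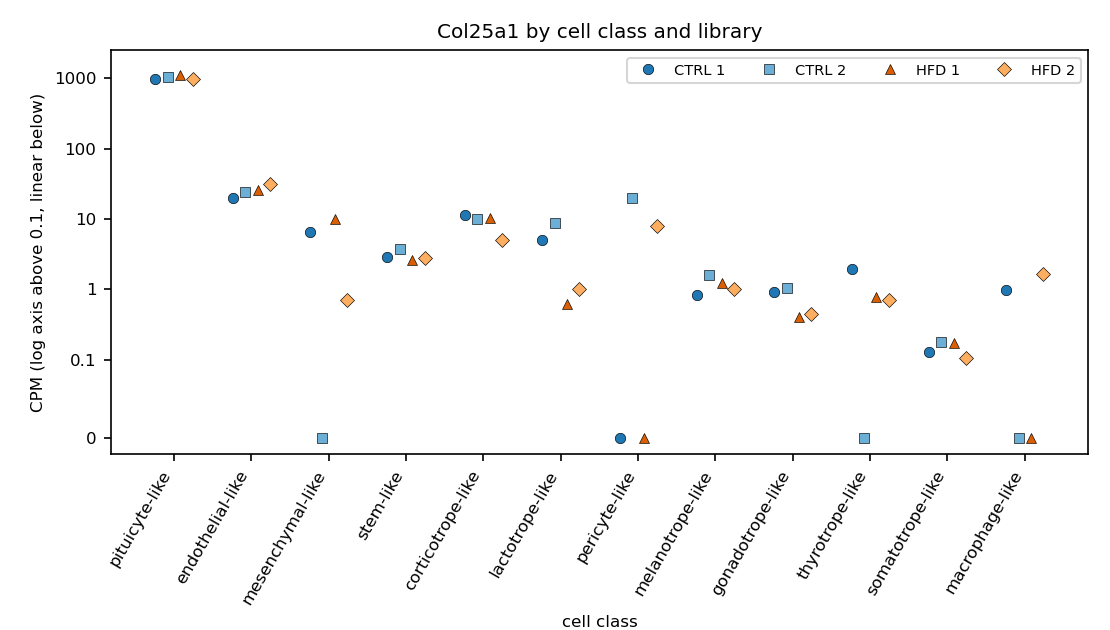
CPM of Col25a1 in each cell class, 1 point per library, on an axis that is linear below 0.1 and logarithmic above. Pituicyte-like cells lie near 1000 CPM in all libraries, and in lactotrope-like cells the CTRL points (5.13 and 8.90 CPM) lie above the HFD points (0.62 and 1.01 CPM).

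In the other hormone classes and in macrophage-like cells no member passed in edgeR or DESeq2. Corticotrope-like cells had 9 members tested, 3 of them with an unadjusted p under 0.05 (9.76% of all genes, 0.24% past the adjusted threshold), and their Col11a1 was 38.6 and 41.2 CPM under CTRL and 53.6 and 42.7 under HFD. Col18a1 in these cells had 0.58 and 0 CPM against 3.01 and 3.86, with an edgeR adjusted p of 0.1, and Slc19a1 lies over its 3′ end. Gonadotrope-like cells had 7 members tested, 2 with an unadjusted p under 0.05 (20.9% of all genes, 0.532% past the adjusted threshold). Their Col18a1 was 26.2, 33.1, 32.0 and 26.3 CPM and their Col11a1 30.7, 9.77, 23.6 and 17.1 CPM, both with overlap. A shallow cluster (median 1539 UMIs) held 19, 51, 522 and 34 of the gonadotrope-like cells. Shallower copies were 66.9% of the HFD 1 gonadotrope-like cells, 61.0% of the melanotrope-like and 61.3% of the thyrotrope-like cells. Without them HFD 1 had 32.1 CPM of Col18a1 and 24.7 of Col11a1 in gonadotrope-like cells, 15.9 of Col11a1 in melanotrope-like cells and 42.3 of Col1a2 in thyrotrope-like cells.

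Melanotrope-like cells had 10 members tested, 1 with an unadjusted p under 0.05 (6.83% of all genes, 0.00775% past the adjusted threshold), and Col11a1 at 16.2, 11.2, 14.4 and 14.4 CPM. Thyrotrope-like cells had 5 tested and none under an unadjusted 0.05 (7.29% of all genes, 0.417% past the adjusted threshold), with Col1a2 at 45.5, 59.2, 44.1 and 37.7 CPM. Macrophage-like cells had 4 tested and none under an unadjusted 0.05 (5.14% of all genes, 0.144% past the adjusted threshold). Their Col27a1 was 31.5, 31.9, 36.1 and 28.8 CPM. Members without overlap between the diets were 2 higher and 3 lower in corticotrope-like cells (12.2 and 29.9% of all genes), 0 and 3 in gonadotrope-like cells (13.5 and 40.9%), and 1 and 4 in melanotrope-like cells (10.9 and 26.9%). They were 0 and 2 in thyrotrope-like cells (15.9 and 21%) and 1 and 1 in macrophage-like cells (15.6 and 19.1%). These 5 pairs of counts were the same without the shallower copies.

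Genes that make, process, break down or bind collagen were counted from 5 lists. In mesenchymal-like cells none passed of 16 tested for modification and folding, 6 for processing and cross-linking, 6 for breakdown and its inhibitors, 6 receptors and 15 matrix partners, with median log2 differences of 0.11, 0.33, 0.45, 0.15 and 0.34. Over all classes, 3 genes passed, 1 each in lactotrope-like, somatotrope-like and gonadotrope-like cells, where 0.961, 0.128 and 0.532% of all genes passed. They were 1 of 16 and 1 of 17 genes tested for modification and folding, and 1 of 4 matrix partners. P4ha2, a prolyl hydroxylase subunit that stabilises the helix, rose in lactotrope-like cells from 29.6 and 27.5 to 43.5 and 44.5 CPM (log2 difference 0.57, SE 0.11, edgeR adjusted p = 0.0325). Serpinh1, the collagen chaperone HSP47, fell in somatotrope-like cells from 33.5 and 34.9 to 20.7 and 17.1 CPM (-0.94, SE 0.11, edgeR adjusted p = 0.0455). Within the somatotrope-like cluster richer in CTRL cells it was 36.0 and 36.4 against 25.6 and 21.4 CPM, and within the other it was 18.7 and 23.5 against 19.2 and 14.7 CPM, with overlap. In mesenchymal-like cells Serpinh1 was 350.1 and 388 against 687 and 689 CPM. Dcn, the small proteoglycan decorin that binds fibrils, fell in gonadotrope-like cells from 14.3 and 7.22 to 1.03 and 1.25 CPM (-3.09, SE 0.43, edgeR adjusted p = 0.0354). Beside it, the summed mesenchymal markers of gonadotrope-like cells (8 of 9 detected, Dpt at 0, Dcn among them) were 24.1 and 11.9 CPM under CTRL and 3.69 and 3.97 CPM under HFD, and their part in this fall was not tested.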

How the data were processed

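Single-cell 3′ RNA of 4 mouse pituitary libraries (2 per diet, grouped by title and diet label) was deposited by the authors as UMI counts per gene and barcode, whole numbers that were not normalized. The submitters' processing notes name Cell Ranger 6.1.2, Seurat 4.3 and mm10, without roles. The deposited barcodes held 74758237 to 101903367 UMIs per library, and intervals cover counting error only. Kept barcodes had 500 genes or more and 20% or less of UMIs from 13 mitochondrial genes, after removal of 1540 putative doublets (highest simulated-neighbour scores, 0.8% per 1000 cells). Counts of 2000 variable genes without collagen genes gave 30 principal components, 20 neighbours and Leiden clusters (resolution 0.8, leidenalg 0.10.2), named from fixed markers, with naming details set after clusters were seen and before diets were compared. UMIs were summed per library and class (at least 30 cells in each library for a test) and fitted with edgeR 4.0.16 (R 4.3.3, TMM, filterByExpr, quasi-likelihood test on diet, Benjamini-Hochberg, threshold 0.05), and the SE is the size of the log2 difference over the square root of F. DESeq2 1.42.0 and the other alternatives are in the closing section. Named were members past the test, the 6 highest of mesenchymal-like, pericyte-like and endothelial-like cells, the 2 highest of each other class (10 CPM or more), members of 10 CPM or more led by another class, the 3 largest differences in mesenchymal-like and endothelial-like cells, and list genes past the test. Other members were named after their values were seen. The members and lists were chosen with earlier results of these data known. Promoter sequence was found for 35 of the 44 members. The edgeR fit was tested on data simulated at these depths with the same dispersion for every gene. It recovered 23.4% of 2-fold and 85.6% of 4-fold changes in mesenchymal-like cells (8519 genes), and 29.9 and 93.7% in endothelial-like cells (10210 genes). False calls numbered 10 and 9. The fits to the real counts let dispersion differ between genes, so recovery there may differ.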

Additional observations from a re-analysis of the deposited data

Results flagged for a closer look

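The diet difference of Col1a2 was 1.39 higher on the log2 scale in stem-like than in somatotrope-like cells (SE 0.16, edgeR adjusted p = 0.0133 over 15189 genes). In the same fit 21 of these genes passed. Both HFD libraries were above both CTRL libraries in stem-like cells and below them in somatotrope-like cells. The pair was one of 7 compared after the values had been seen.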

How the results depend on the processing

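Each result was recomputed under the other scaling, DESeq2, no low-count filter, a replicate block, each library left out, stricter cells, no doublet removal, collagen genes allowed in clustering and finer clustering. Without the shallower copies and without shared barcodes were chosen after seeing the data. No label ties same-numbered libraries to each other, and the correlation of their deviations ran from -0.13 to 0.28 by class (0.28 in stem-like cells), so whether they are paired is not known. Counts of members past the threshold moved as follows. The shares of all genes past it in the same fits are not given here, so whether these moves are particular to collagen genes is not known. DESeq2 called 1 in the whole gland and 1 in somatotrope-like cells. Without the low-count filter there were 1 in corticotrope-like, 2 in gonadotrope-like, 2 in lactotrope-like, 1 in mesenchymal-like, 1 in somatotrope-like and 4 in stem-like cells. With the replicate block there were 2 in lactotrope-like, 1 in mesenchymal-like and 2 in stem-like cells. With 1 library left out, the ranges were 0 to 1 in corticotrope-like, gonadotrope-like and melanotrope-like cells, 1 to 2 in lactotrope-like cells, and 0 to 2 in mesenchymal-like and stem-like cells. Such a fit assumes that the lone library varies like the other diet. The log2 ratio of summed CPM became 0.16 in the whole gland without shared barcodes, 0.27 in the whole gland and -0.029 in somatotrope-like cells without Col1a2, and 0.0571 in pericyte-like cells of the stricter filter. With 1 library left out it ranged from 0.28 to 0.54 in mesenchymal-like cells, from -0.35 to -0.11 in somatotrope-like cells and from -0.03 to 0.39 in lactotrope-like cells. Thinned to 1000 UMIs, the HFD minus CTRL share of cells with a UMI was 8.45 points for Col1a1 in mesenchymal-like cells and -0.66 for Col25a1 in lactotrope-like cells. Signs turned in mesenchymal-like cells without HFD 2 (ranges with 1 library left out: Col4a1 -0.52 to 0.17, Col4a2 -0.46 to 0.0201), in endothelial-like cells without CTRL 1 (Col13a1 -0.062 to 0.30), for Col4a4 there with stricter cells (-0.0309) and no doublet removal (-0.0155), and for Col18a1 in the whole gland without shared barcodes (-0.0253). The cause was not tested in any of these. Of 459 values of single named genes, 423 kept their direction and side of the threshold. Among these genes only Col25a1, P4ha2, Serpinh1 and Dcn had passed in the main setting. For the others, the same side means again not passing, which does not show that a difference is stable. P4ha2 and Serpinh1 each passed in 11 of 14 alternatives and Dcn in 10 of 12.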
